A study of Rattus norvegicus with 9 samples.

Results

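All RYGB ileum was set against sham ileum here, whatever the FDG label. The comparison took the 7 distinct RYGB libraries (3 labelled FDG decreased and 4 labelled FDG increased) and the 3 sham libraries, which together are the 10 distinct libraries that the deposited tables hold. The animals were Otsuka Long-Evans Tokushima fatty rats, a model of obesity and type 2 diabetes without a functional cholecystokinin A receptor. The RYGB group had undergone Roux-en-Y gastric bypass, in which food is led from a small stomach pouch straight into the jejunum. The sham group had a sham operation. All groups shared the strain and the tissue, and the labels give 1 month after the operation for all of them. The labels do not spell out FDG, which is the usual abbreviation of fluorodeoxyglucose, a glucose analogue used to image glucose uptake. The question was which genes lay outside the sham range, on the same side, in every RYGB library. A gene counted as above when its lowest RYGB value exceeded its highest sham value, and as below when its highest RYGB value was under its lowest sham value.

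The ileum is the last stretch of the small intestine. Its epithelium takes up bile acids, and Paneth, goblet and absorptive cells release antimicrobial proteins and mucus at its surface. After gastric bypass it receives food that has met bile and pancreatic juice later than usual. Heat-shock proteins are chaperones that hold, refold or pass on damaged proteins, and most of them are switched on together by the transcription factor HSF1, which binds repeats of the letters GAA and TTC in promoters.

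Expression was given as FPKM, fragments per length of transcript and relative to the fragments mapped, as scaled within each table. The 2 tables had been scaled separately, so levels set across them rest on a factor of 1.02 taken from a pair of FDG-increased libraries that both tables hold, and no p-value was computed across the tables. In the RYGB table, libraries with the same replicate number resembled each other most, with correlations across genes of 0.982, 0.977 and 0.978 for the 3 pairs of FDG-decreased and FDG-increased libraries. The FDG-increased library held by the sham table alone correlated at 0.979 with FDG-increased library 1 and at 0.975 with FDG-decreased library 1. The 7 RYGB libraries were therefore not 7 unrelated samples, and the labels do not say which of them came from the same animal. With the FDG-increased library of the sham table counted in pair 1, each RYGB library correlated more with sham library 2 or 3 than with RYGB libraries outside its pair. FDG-decreased library 3, for example, correlated at 0.966 with sham library 2 and at 0.931 and 0.93 with FDG-decreased libraries 1 and 2. These correlations describe libraries of one tissue that share most of their highly expressed genes.

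**Figure D1:**
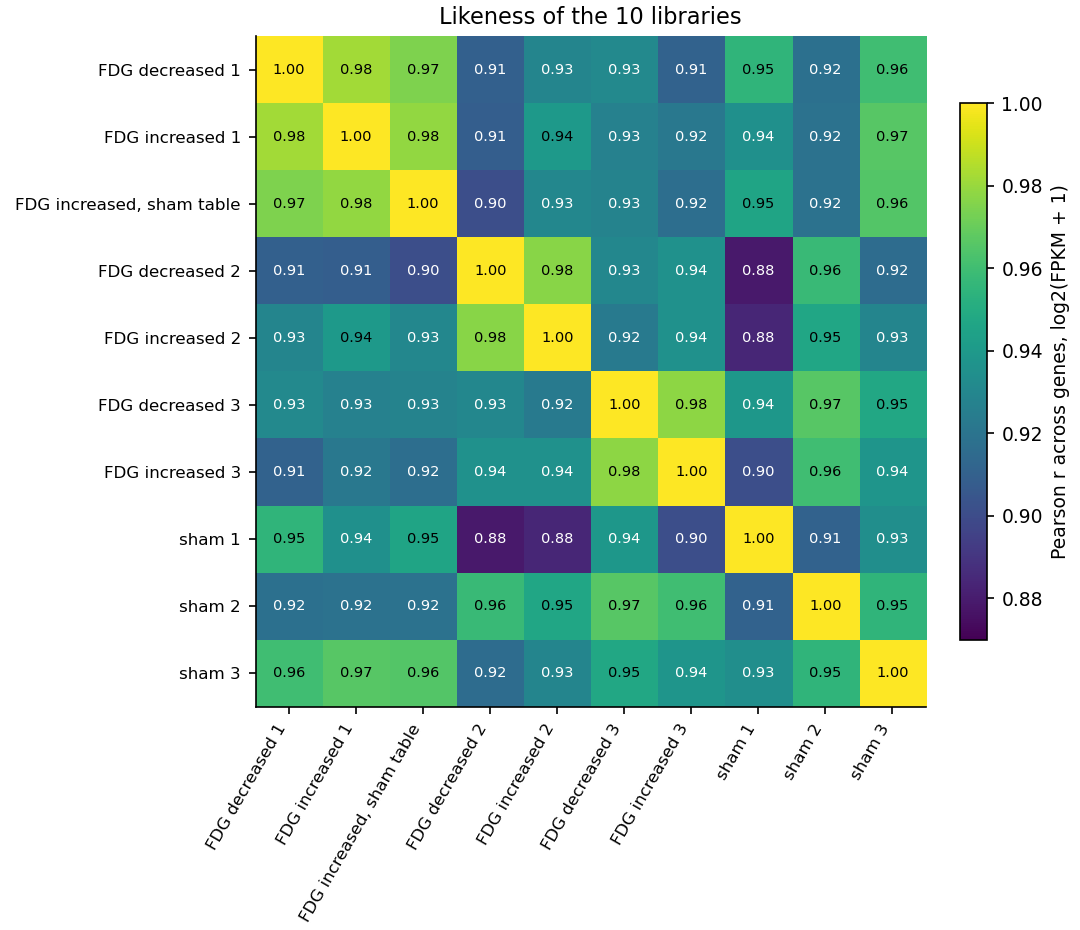
Pearson correlation of log2(FPKM + 1) across genes between each pair of the 10 libraries, from dark (low) to light (high), with libraries on both axes. The same-numbered RYGB libraries and the FDG-increased library of the sham table form light blocks, and sham library 1 goes down to 0.88 with FDG-decreased and FDG-increased libraries 2.

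The library labelled sham 1 stood apart from the other sham libraries in markers of gut region. Fabp6, the ileal bile acid binding protein, was at 22.6 FPKM in it, against 8375 and 11347 in sham libraries 2 and 3 and 5516 to 22985 in RYGB. Lct, the lactase of the upper small intestine, was at 253 FPKM in it, against 8.60 and 0.317 in the other sham libraries and 0.130 to 8.58 in RYGB. Gata4 and Gip, also upper intestinal markers, were highest in sham library 1, at 59.8 and 81.2 FPKM. Gata4 was at 9.82 and 0.0853 FPKM in sham libraries 2 and 3, and Gip at 10.7 and 3.70. FDG-decreased library 3 lay above sham libraries 2 and 3 for both, at 27.0 FPKM of Gata4 and 13.2 FPKM of Gip. The summed FPKM of the 17 upper intestinal markers found was 18279.5 in sham library 1 and 2979 and 2847 in the others, with 2298 to 10977 in RYGB. The 17 ileal and colonic markers found summed to 578, 9072 and 12184 FPKM in sham libraries 1, 2 and 3 and to 6043 to 25662 in RYGB. Ileal markers thus ran against the tissue label in sham library 1. Why they did so was not tested, and some counts and differences are given below without sham library 1. Leaving it out can only add genes to those outside the sham range, so every gene named below as above or below all sham libraries was also outside the range of sham libraries 2 and 3.

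Of the 10790 genes that averaged 1 FPKM or more across the 10 libraries, 98 lay above all sham libraries in all 7 RYGB libraries, which was 0.908% of them, and 78 lay below, which was 0.723%. Both sides together made 176 genes, or 1.63%. Averaged over all ways to split 10 libraries into 7 and 3, ranks alone put a share close to these on each side. The counts by themselves therefore do not set RYGB apart from sham. The difference between the mean log2(FPKM + 1) of RYGB and of sham had a median of 0.63 over the 98 genes and of -0.57 over the 78 genes, against 0.10 over all genes tested. The gaps between the groups were small. The distance from the lowest RYGB to the highest sham value had a median of 0.07 on the log2 scale over the 98 genes, and the matching distance over the 78 genes also had a median of 0.07. A gap of at least 1.5-fold was left for 1 gene, Hspa1b, on the upper side and for 0 genes on the lower side. A mean log2 difference of at least 1 in either direction was seen for 19 of the 98 and 6 of the 78.

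**Figure D2:**
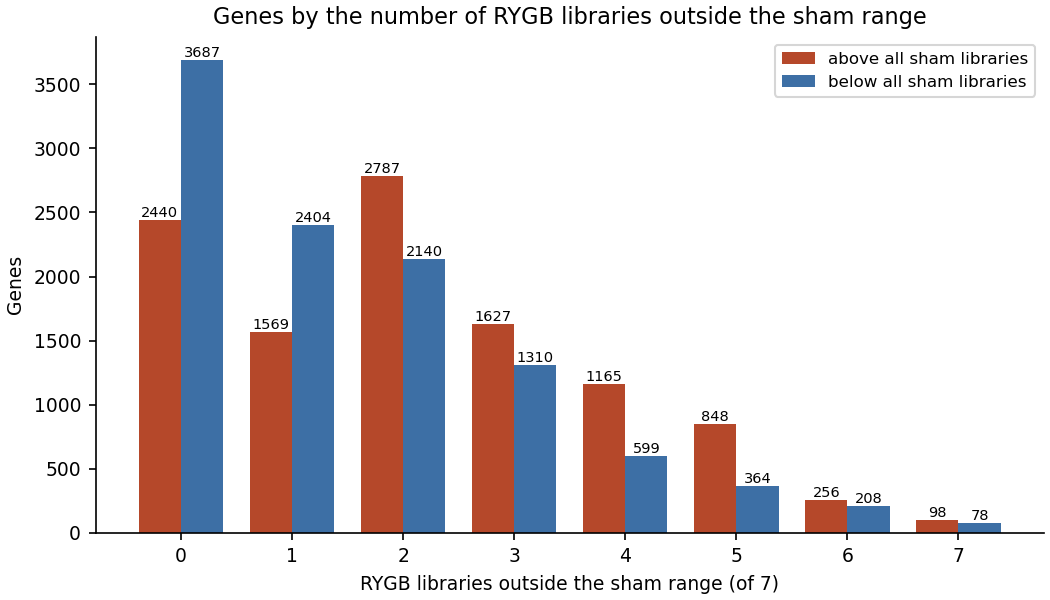
Number of genes (y axis) by how many of the 7 RYGB libraries (x axis) lay above (red) or below (blue) all 3 sham libraries. The counts shrink toward the right, from 256 above and 208 below in 6 of 7 libraries to 98 above and 78 below in all 7.

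Many more genes missed the rule by a single library. With exactly 6 of 7 RYGB libraries outside the sham range, there were 256 genes above and 208 below. FDG-decreased library 3 was the library that overlapped sham for 91 and 97 of them, the FDG-increased library held by the sham table alone for 84 and 33, and FDG-increased library 3 for 46 and 5. At the edge on the upper side stood Ist1, whose lowest RYGB library exceeded the highest sham library by 0.0019 on the log2 scale, and Nit1, which missed by 0.00040. On the lower side Acd passed by 0.00020 and Srebf1, a transcription factor of lipid synthesis, missed by 0.00032. Membership near the edge therefore rested on differences far smaller than the spread among sham libraries.

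The widest gap on the upper side belonged to Hspa1b, and 4 other heat-shock genes also lay above sham, at gaps from 0.01 (Ahsa1) to 0.44 (Bag3) on the log2 scale. Reg3g, Ffar3 and Spink3, described further on, had the next widest gaps after Hspa1b. Hspa1b, an inducible chaperone of the Hsp70 family, was at 31.7, 123 and 25.8 FPKM in the FDG-decreased libraries, at 109, 204, 82.0 and 90.2 FPKM in the FDG-increased libraries, and at 0.985, 11.5 and 13.04 FPKM in sham. Its lowest RYGB library exceeded its highest sham library by 0.93 on the log2(FPKM + 1) scale, the widest separation of any gene above sham. The mean was 95.2 ± 60.4 FPKM in RYGB (SD, n = 7) and 8.51 ± 6.56 FPKM in sham (SD, n = 3), a log2 difference of 3.48 over the 3 sham libraries and 2.57 without sham library 1. Hspa1a encodes a near-identical protein, so the split of reads between both genes is uncertain. Summed over both genes, the level ran from 64.2 to 1062 FPKM in RYGB (median 266) and was 4.62, 22.5 and 50.3 FPKM in sham, again without overlap.

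The 4 others are co-chaperones. Dnajb1, an Hsp40 protein that stimulates Hsp70, was at 74.5, 70.3 and 38.1 FPKM in the FDG-decreased, at 127, 120, 53.7 and 103 FPKM in the FDG-increased and at 26.2, 29.8 and 27.3 FPKM in the sham libraries. The sham values were tight and every RYGB library was above them, with both library 3 samples lowest. Bag3, which couples Hsp70 to the removal of damaged proteins, was at 36.4, 29.1 and 22.0 FPKM in the FDG-decreased libraries, 64.2, 45.6, 41.2 and 29.5 in the FDG-increased libraries, and 11.02, 15.9 and 14.4 in sham. Dnaja1, another Hsp40 protein, ran from 232 to 1102 FPKM in RYGB (median 409) and from 107 to 225 in sham, with the highest levels in both library 2 samples, and Ahsa1, an activator of Hsp90, from 74.7 to 139 FPKM against 63.1 to 74.1. Under quantile normalization Dnaja1 and Ahsa1 overlapped sham, and Ahsa1 also did so with no factor between the tables. Outside the fixed list, and picked after its values were seen, Hspb8, a small heat-shock protein that works with Bag3, ran from 12.8 to 41.8 FPKM in RYGB against 7.49 to 12.2 in sham.

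**Figure D3:**
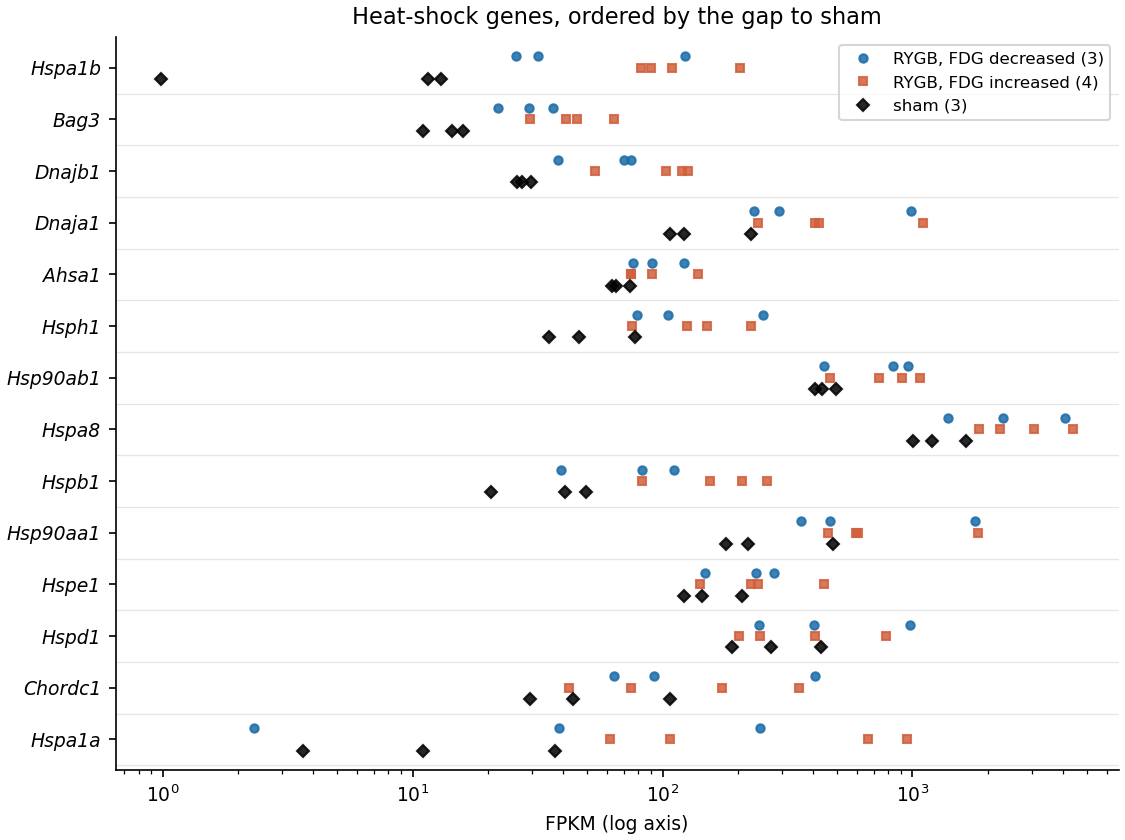
FPKM on a log axis for the 14 heat-shock genes tested, ordered by their gap to sham, with a point for each library (circles FDG decreased, squares FDG increased, diamonds sham). The RYGB points of Hspa1b, Bag3, Dnajb1, Dnaja1 and Ahsa1 lie to the right of all sham diamonds, and those of the other 9 genes overlap them.

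Of the 14 heat-shock genes tested, all 14 had a higher mean in RYGB, beside 6867 of the 10790 genes tested. Of the 14, 5 (35.7%) lay above all sham libraries in all 7, beside 0.908% of all genes. Their median log2 difference was 1.36, beside 0.10 over all genes. Hsph1, Hspa8, Hspb1 and Hspa1a were above sham in 6 of 7 libraries. Hspa1a was at 2.32 FPKM in FDG-decreased library 2, where Hspa1b was at 123. The count was 5 without sham library 1 or 3, where 4.6% and 1.89% of all genes were above. It was 9 without sham library 2, where 3.4% were, and 5 to 7 when a single RYGB library was left out. Leaving a library out can only keep or add genes above sham, so these counts could not fall under 5. The count was 6 once all libraries had the same median, where 101 of all genes were above. It was 3 with quantile normalization, where 85 were. The labels put all 3 sham samples in sequencing lane 7, with replicate 1 of both RYGB groups, and the other RYGB samples in lanes 4 and 5, so that lane and operation cannot be told apart for those. The FDG-increased columns could not be tied to single samples, so FDG-decreased library 1 is the only library that can be set against sham within lane 7. It gave a log2 difference from sham of 2.21 for Hspa1b, against 3.48 over all 7. That difference includes sham library 1, at 0.985 FPKM. FDG-decreased library 1 was at 31.7 FPKM, against 11.5 and 13.04 in sham libraries 2 and 3.

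Promoters of these genes were searched because HSF1 acts through repeats that can be read directly from the sequence. The windows came from RefSeq (GRCr8, from 250 bases before to 50 after each gene's start), and 12 of the 14 genes had one, while Hspa1b had none. The strict search asked for 3 alternating units, GAANNTTCNNGAA or TTCNNGAANNTTC, and the loose search for 2 units, GAANNTTC or TTCNNGAA, which every strict match also contains. Both were read on either strand. Strict matches were found in 6 of the 12 (50%), beside 0.49% of the promoters of genes tested, and loose matches in 9 (75%), beside 11.8%. The whole set of genes above sham did not share this: 2 of its 72 promoters (2.78%) held the strict form and 13.9% the loose form. The stretches below are shown to let both forms be compared, in lower case with the matching letters in capitals, each read 5′ to 3′ on the strand of its gene.
Bag3 (loose, chr1:192533303-192533360, plus strand): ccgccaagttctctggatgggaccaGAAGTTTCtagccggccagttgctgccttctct
Dnajb1 (loose, chr19:41431142-41431177, minus strand): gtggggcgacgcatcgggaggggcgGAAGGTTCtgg
Hspb8 (loose, chr12:45837260-45837307, plus strand): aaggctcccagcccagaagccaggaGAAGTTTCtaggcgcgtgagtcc
Hsph1 (strict, chr12:10427307-10427367, plus strand): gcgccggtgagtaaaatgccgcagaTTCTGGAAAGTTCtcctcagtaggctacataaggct
Hspa8 (strict, chr8:50080434-50080496, plus strand): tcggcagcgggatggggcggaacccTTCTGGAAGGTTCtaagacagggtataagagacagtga
Hspe1 (strict, chr9:64084242-64084304, plus strand): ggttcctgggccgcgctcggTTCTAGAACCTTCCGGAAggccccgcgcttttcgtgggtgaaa
Each stretch holds the upstream match nearest to the start. Bag3, Dnajb1 and Hspb8, shown with the loose form, lay above sham in all 7 libraries, Hsph1 and Hspa8, shown with the strict form, in 6 of 7, and Hspe1 in 5 of 7. The form did not sort the genes by their separation from sham: Dnaja1, above in all 7, had a strict match just after its start, Ahsa1, also above in all 7, had no match, and Hspb1, above in 6 of 7, had loose matches only. In the Hspe1 stretch a pair of overlapping strict matches make 1 run of capitals, and Hspd1 is read from the other strand of the same region. A match describes letters and does not show binding.

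Atf4 was the single member above sham among the 18 ATF4 and unfolded protein genes tested (5.56%, beside 0.908% of all genes), and their median log2 difference was 0.09, or -0.09 with quantile normalization, near that of all genes. Atf4, a transcription factor whose translation rises under amino acid shortage and unfolded protein stress, ran from 209 to 380 FPKM in RYGB (median 283) and was at 162, 141 and 125 FPKM in sham. The groups did not overlap, and the log2 difference was 0.89, or 0.57 with quantile normalization. Sertad3, a small transcriptional co-regulator, ran from 11.03 to 16.8 FPKM against 4.51 to 9.04. Jmjd6, a nuclear oxygenase, ran from 16.6 to 40.2 FPKM against 11.4 to 14.2. Traf4, an adaptor protein of receptor signalling, ran from 34.6 to 59.1 FPKM against 24.4 to 28.7, and overlapped sham under quantile normalization.

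Several genes of the epithelial surface also lay above sham. Reg3g, a secreted lectin that kills Gram-positive bacteria, was at 1971, 2263 and 3129 FPKM in the FDG-decreased libraries, 3785, 3825, 6515 and 2152 FPKM in the FDG-increased libraries, and 57.7, 1344 and 556 FPKM in sham. The sham libraries alone spanned more than the gap between the groups, with sham library 1 lowest. The log2 difference of 3.14 was 1.85 without sham library 1, and the groups overlapped under quantile normalization. Reg3g was the single member above sham of the 12 antimicrobial and Reg genes tested (8.33%, beside 0.908% of all genes). Of the 12, 11 had a higher mean, beside 6867 of the 10790 genes tested. Spink3, a secreted inhibitor of trypsin-like proteases, ran from 29.3 to 103 FPKM in RYGB (median 45.7) and was at 4.15, 19.8 and 5.63 FPKM in sham. Sham library 2 was the highest of the sham libraries and still lay under every RYGB library.

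S100g, the calcium-binding protein calbindin D9k that carries calcium across the absorptive cell, was at 255, 372 and 70.6 FPKM in the FDG-decreased libraries. It was at 413, 527, 86.1 and 873 FPKM in the FDG-increased libraries and at 65.4, 36.4 and 27.8 FPKM in sham. Both library 3 samples stood just above sham, while the other 5 RYGB libraries were at 255 FPKM or more. Of the genes above sham in all 7, it was the only 1 that passed limma within the sham table as fitted without a replicate block, where S100g rose in FDG-increased against sham ileum by 3.79 ± 0.43 (log2, SE, adjusted p = 0.0306). FDG-increased library 3, at 86.1 FPKM, is not in the sham table and took no part in that fit. The 6 libraries of the fit are among the 10 that the range rule used, so its p-value is not separate support for S100g. The call was kept without FDG-increased library 2, which is numbered 3 in the sham table (limma adjusted p = 0.0149). It was lost without any other single library, with a pseudocount of 0.1, with no filter and with either rescaling (limma adjusted p = 0.0528 to 0.181). That test called 4 of 10801 genes (0.037%). The other 3 were Atf3, Fosb and Nr4a1, immediate-early genes that overlapped sham in the FDG-decreased libraries. Nr4a1 also overlapped sham in FDG-increased library 3, at 6.12 FPKM against 1.85 to 6.97. Among the 8 calcium and phosphate genes tested S100g was the single member above sham (12.5%, beside 0.908% of all genes). Vdr, the vitamin D receptor of which S100g is a known target, ran from 60.4 to 142 FPKM in RYGB and from 91.0 to 119 in sham.

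Ffar3, a receptor for short-chain fatty acids made by gut bacteria, was low but separate, at 3.38, 8.75 and 3.29 FPKM in the FDG-decreased, 2.35, 3.70, 2.40 and 2.26 FPKM in the FDG-increased and 1.238, 1.02 and 0.839 FPKM in the sham libraries. FDG-decreased library 2 was highest and the other 6 lay within 2.26 to 3.70. Rnls, a flavin enzyme named renalase, ran from 6.32 to 16.4 FPKM against 4.24 to 5.29. Smagp, a small membrane protein of epithelial cells, ran from 28.1 to 59.8 FPKM against 19.9 to 21.7. Tmem50a, Trmt10b and Lysmd3 completed the 15 genes with the widest gaps above sham. Their log2 differences were 0.89, 0.46 and 0.68. All 15 stayed above sham once all libraries had the same median, and 13 with quantile normalization.

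**Figure D4:**
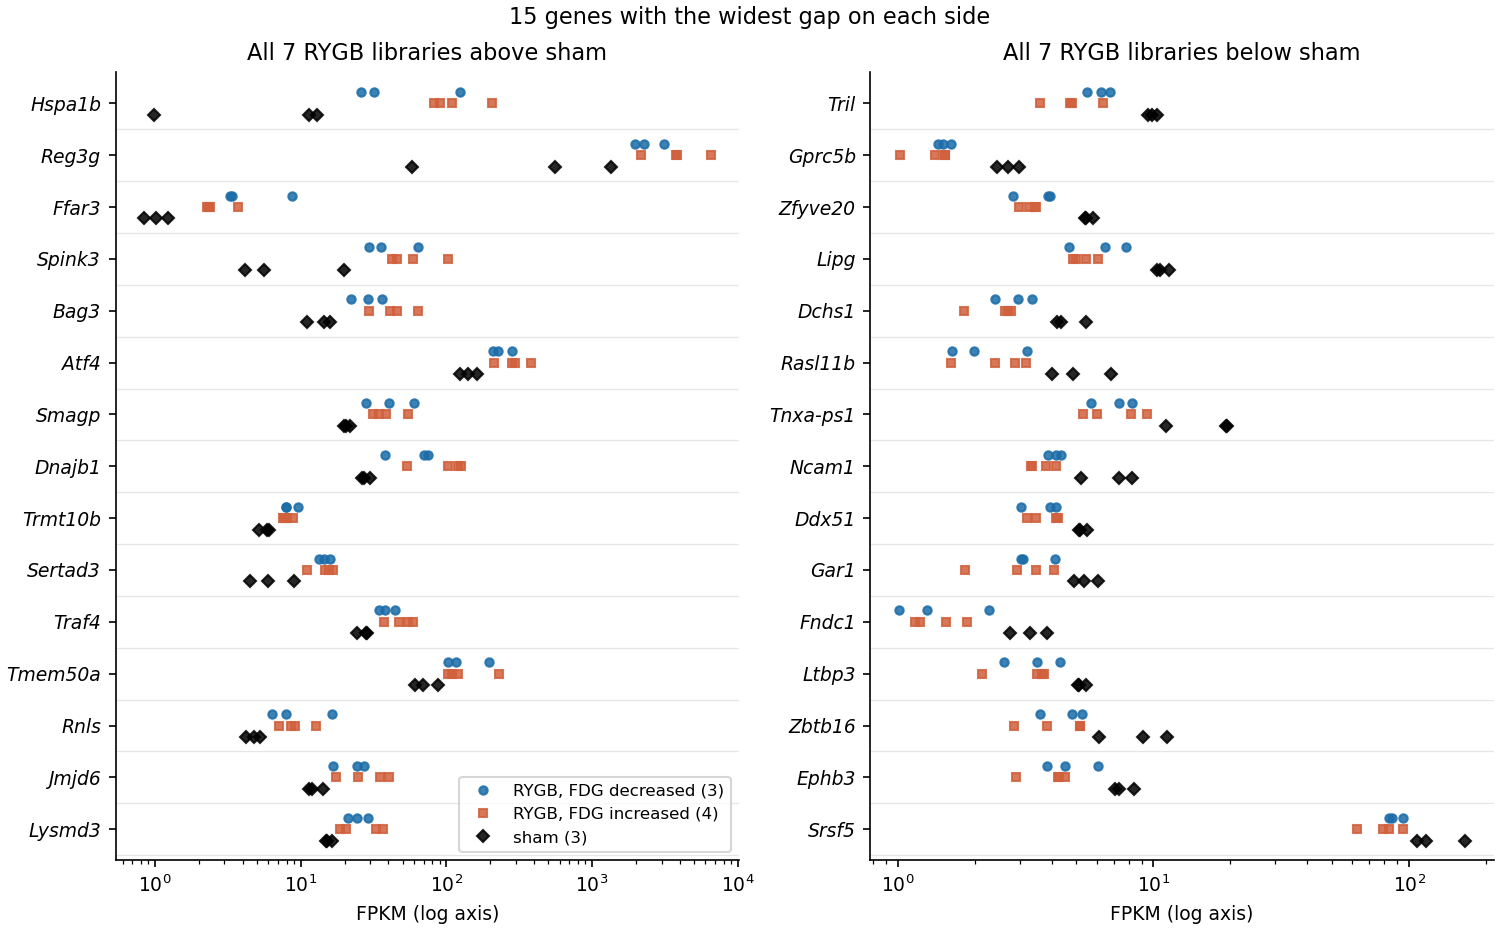
FPKM on a log axis for the 15 genes with the widest gap above sham (left) and below sham (right), with a point for each library (circles FDG decreased, squares FDG increased, diamonds sham). Every RYGB point lies to the right of the diamonds on the left panel, where Hspa1b runs from 25.8 to 204 FPKM against at most 13.04 in sham, and to the left of them on the right panel.

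The widest gap on the lower side belonged to Tril, followed by Gprc5b, Zfyve20, Lipg and Dchs1. Tril, an accessory protein of Toll-like receptor signalling, was at 6.79, 6.26 and 5.48 FPKM in the FDG-decreased libraries, 4.81, 4.73, 3.61 and 6.35 in the FDG-increased libraries, and 10.3, 9.50 and 9.86 in sham. The sham values lay close together and above every RYGB library, the widest separation below sham, at a log2 difference of -0.78. Ltbp3, which holds latent TGF-beta in the matrix, ran from 2.15 to 4.31 FPKM against 5.08 to 5.44. Fndc1, a fibronectin-domain protein, ran from 1.01 to 2.28 FPKM against 2.75 to 3.83. Ncam1, a neural adhesion molecule, ran from 3.34 to 4.34 FPKM against 5.23 to 8.25. Tie1, a receptor of endothelial cells, ran from 5.75 to 7.41 FPKM against 8.47 to 12.8. Fndc1 and Ltbp3 overlapped sham under quantile normalization.

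Tie1 was the single member below sham of 13 endothelial genes tested (7.69%, beside 0.723% of all genes), and 0 of 12 fibroblast, 0 of 16 matrix and 0 of 13 neuron and glia genes were below. Median log2 differences were -0.13, -0.15, -0.14 and -0.15 for the 4 lists, in the order named, beside 0.10 over all genes. A lower mean in RYGB was seen for 11 of 13 endothelial, 7 of 12 fibroblast, 12 of 16 matrix and 10 of 13 neuron and glia genes, and for 3923 of the 10790 genes tested. Summed FPKM of the endothelial markers ran from 95.9 to 220 in RYGB and 147 to 222 in sham, and of the fibroblast markers from 381 to 1226 and 531 to 723. The part of cell makeup in these genes was not tested, and in whole tissue fewer cells of a type and less RNA per cell cannot be told apart. Tnxa-ps1, at 5.29 to 9.43 FPKM against 11.2 to 19.4, is a pseudogene copy of tenascin XB, so its reads are uncertain.

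Genes of the crypt base were represented by a pair. Ephb3, a receptor that keeps proliferating and Paneth cells in the crypt, was at 4.51, 3.83 and 6.08 FPKM in the FDG-decreased, 4.23, 2.90, 4.29 and 4.50 FPKM in the FDG-increased and 7.33, 7.05 and 8.40 FPKM in the sham libraries, with no overlap. Ascl2, a Wnt-driven transcription factor of intestinal stem cells, ran from 1.02 to 1.79 FPKM against 2.01 to 2.98. These were 2 of the 15 stem cell and Wnt genes tested (13.3%, beside 0.723% of all genes). The list's median log2 difference was -0.12, 6 members had a higher mean in RYGB, and Lgr5, the best known stem cell marker, overlapped, at 3.80 to 10.4 FPKM against 4.65 to 12.5. Cdt1, which licenses replication origins, ran from 2.17 to 5.16 FPKM against 5.20 to 5.77 and was the single member below of 28 cell cycle genes tested (3.57%). It overlapped sham under quantile normalization.

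Lipid genes below sham included Lipg, endothelial lipase, at 4.68 to 7.81 FPKM in RYGB (median 5.45) and at 10.6, 10.4 and 11.5 FPKM in sham. Lpl, lipoprotein lipase, was at 3.44 to 7.41 FPKM in RYGB and at 7.44, 94.5 and 10.2 FPKM in sham, where sham library 2 was far above the others. Cidec, a protein of lipid droplets, was at 8.55 to 11.8 FPKM in RYGB and at 22.4, 33.0 and 11.9 FPKM in sham. Lpl and Cidec were 2 of the 14 adipocyte genes tested (14.3%, beside 0.723% of all genes), whose median log2 difference was -0.96. Sham library 2 also had Adipoq, the fat cell hormone adiponectin, at 71.3 FPKM, against 0.136 and 15.7 in the other sham libraries and 0 to 8.88 in RYGB. Summed adipocyte markers were 300, 778 and 272 FPKM in sham libraries 1, 2 and 3 and 92.3 to 411 in RYGB, and the part of attached fat in Lpl and Cidec was not tested. Without sham library 2 the log2 difference of Lpl was -0.45 in place of -1.55, and once all libraries had the same median both genes overlapped sham.

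Slc7a5, a large neutral amino acid transporter, ran from 3.40 to 5.88 FPKM in RYGB against 6.59 to 7.51 in sham. It was the single member below of 16 amino acid and peptide transporters tested (6.25%, beside 0.723% of all genes). The list's median log2 difference was 0.28, or -0.02 with quantile normalization. Zbtb16, a transcription factor of innate-like lymphocytes, ran from 2.85 to 5.27 FPKM against 6.13 to 11.3. It stayed below sham with the same median and with quantile normalization.

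RNA processing genes among the widest gaps below were Srsf5, a splicing factor, at 62.7 to 94.7 FPKM against 107 to 166, Gar1, a protein of small nucleolar ribonucleoprotein particles, at 1.84 to 4.11 FPKM against 4.88 to 6.10, and Ddx51, a helicase of ribosome assembly, at 3.05 to 4.26 FPKM against 5.10 to 5.50. Gprc5b, Zfyve20, Dchs1 and Rasl11b completed the 15 and had log2 differences of -0.61, -0.58, -0.63 and -0.87. All 15 stayed below sham with the same median and 12 with quantile normalization. Over the whole sides, 75 of the 98 and 60 of the 78 stayed with the same median, and 50 and 40 with quantile normalization.

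Most of the 53 gene lists had no member outside the sham range in all 7 libraries. Over all 10790 genes tested, 6867 had a higher mean in RYGB and the median log2 difference was 0.10. The 26 immediate-early genes tested had 23 members with a higher mean and a median log2 difference of 0.75, yet 0 lay above sham in all 7. Their mean log2(FPKM + 1) was 5.76, 5.09, 4.20 and 5.45 in the FDG-increased libraries, 4.22, 3.57 and 3.38 in the FDG-decreased libraries and 3.97, 3.53 and 4.09 in sham, so the FDG-decreased libraries lay in and around the sham range. Klf6, Btg2 and Egr2 came closest, above sham in 6 of 7. The 7 bile acid genes tested all had a higher mean (median 0.88, or 0.48 without sham library 1) and 0 were above in all 7. FDG-decreased library 3 had 5516 FPKM of Fabp6 and 23.7 FPKM of Slc10a2, the ileal bile acid transporter, and was under sham libraries 2 and 3 for both. All 10 Paneth cell genes tested had a higher mean (median 0.75, or 0.39 without sham library 1) with 0 above. Defa8, a defensin of those cells, was above sham in 6 of 7, at 3827 to 9977 FPKM against 1815, 4487 and 4204. The 11 goblet cell genes tested had a median of 0.78 and 0 above.

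**Figure D5:**
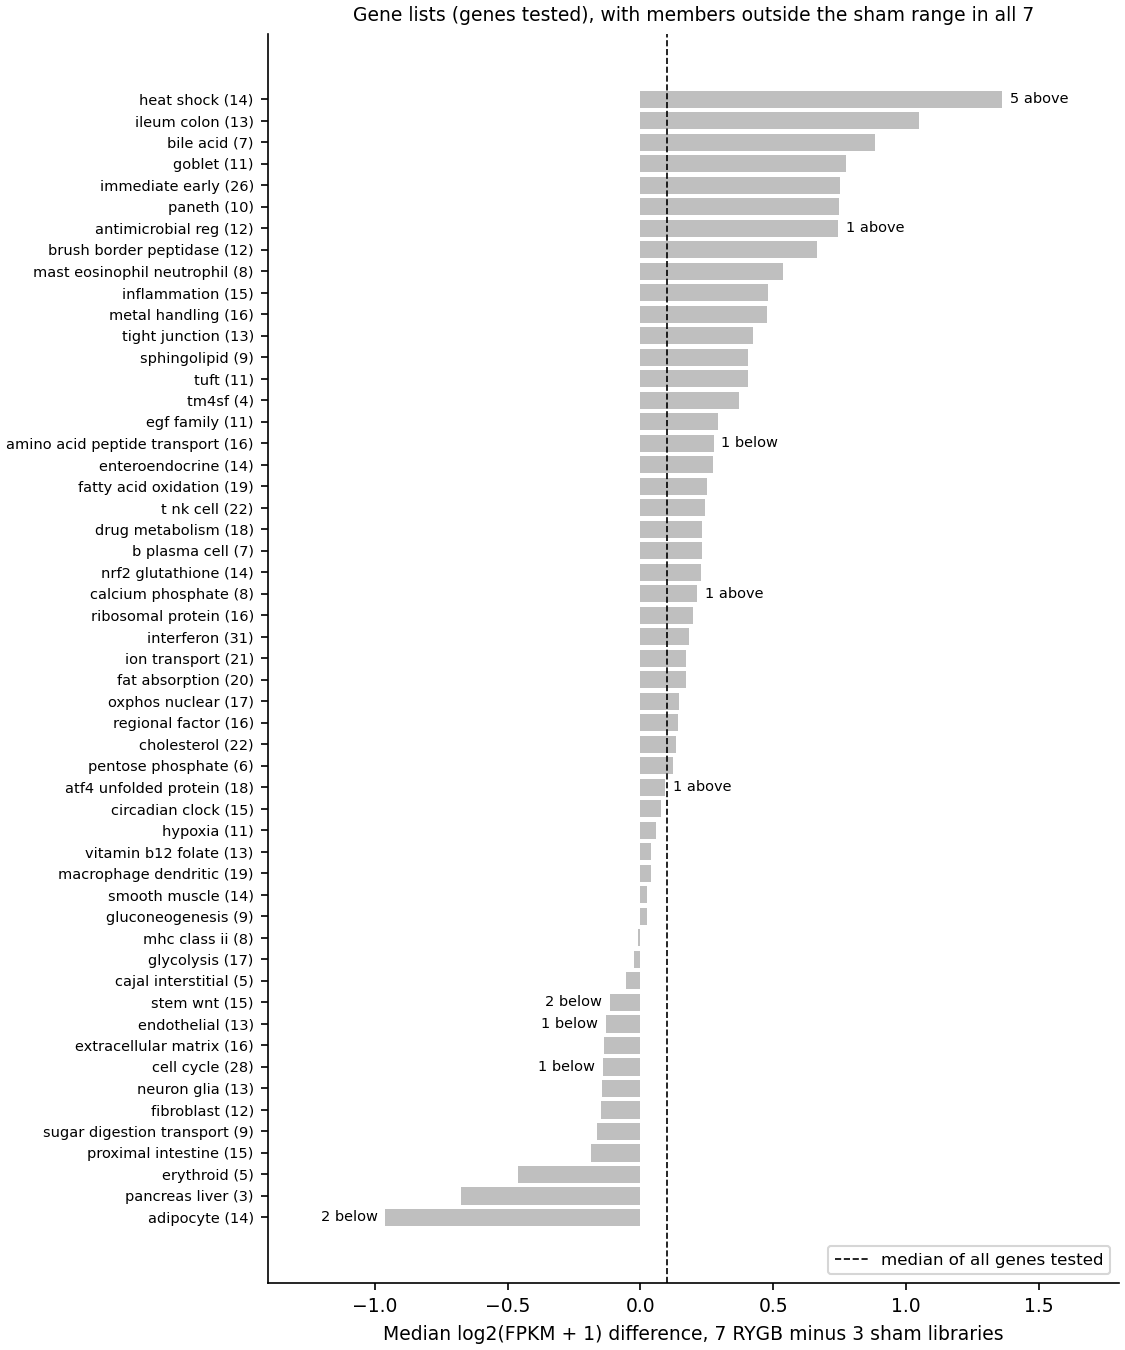
Median log2(FPKM + 1) difference between the 7 RYGB and the 3 sham libraries (x axis) for each gene list (rows, with the number of genes tested), with the members outside the sham range in all 7 written beside the bar and the median of all genes, 0.10, as a dashed line. Heat-shock genes reach 1.36 with 5 members above, and adipocyte genes reach -0.96 with 2 members below.

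Within RYGB, 74 of the 98 genes above sham (75.5%) had a lower mean log2 level in FDG-decreased than in FDG-increased libraries of the RYGB table, beside 44.7% of all genes tested. Of the 78 genes below sham, 61 (78.2%) had a higher mean there, beside 55.2% of all genes. No test was made of these shares. FDG-decreased library 3 was the nearest to sham for 42 of the 98, and FDG-increased library 2, whose median log2 level was 4.17 against 3.66 to 4.14 in the other RYGB libraries, was the farthest for 46. limma without the replicate block called 0 of 10739 genes between the FDG groups (110 at an unadjusted p under 0.05), and with the replicate number as a block it called 122 (1.14%), 48 higher (0.447%) and 74 lower (0.689%) in FDG-decreased ileum. With that block, 7 of the 98 genes above sham were lower in FDG-decreased ileum and 0 of the 78 below sham were called. The 7 were Hspa1b, Bag3, Dnajb1, Reg3g, Spink3, Fam3d and PVR. For Hspa1b the log2 difference, FDG decreased minus FDG increased, was -1.37 ± 0.20 (SE, limma adjusted p = 0.0141), and for Reg3g it was -0.92 ± 0.14 (adjusted p = 0.0104), lower in 3 of 3 same-numbered pairs for both. For S100g it was -0.49 ± 0.14 (limma adjusted p = 0.167), which did not pass.

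How many genes lay outside the sham range changed more when a sham library was left out than for most RYGB libraries. Part of this is fixed by the design, since leaving out 1 of 3 libraries loosens the rule more than leaving out 1 of 7. Against sham libraries 2 and 3 alone, 496 genes (4.6%) were above and 242 (2.24%) below. That set held 5 of 17 glycolytic enzymes above (Gpi, Aldoa, Tpi1, Gapdh and Eno1), 5 of 17 oxidative phosphorylation subunits and 4 of 19 fatty acid oxidation genes, which all were at 0 members above with sham library 1 included. It also held 6 of 28 cell cycle genes below, among them Mcm2, Mcm3, Mcm5 and Mcm7 of the replicative helicase, and 6 of 14 adipocyte genes below. Against sham libraries 1 and 3 the counts were 367 (3.4%) and 279 (2.59%), and against sham libraries 1 and 2 they were 204 (1.89%) and 119 (1.1%).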

How the data were processed

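Total RNA libraries of ileum were sequenced. The submitters' processing notes name STAR 2.6.0a, Cufflinks 2.2.1, Cuffdiff, DESeq2 1.24.0 and bcl2fastq 1.8.4 without their order, and list hg19, a human build, so no coordinates were taken from the tables. The authors deposited FPKM in 2 tables of 6 columns and 17145 genes, each scaled on its own. Read depth is unknown, and the sum of FPKM was 465697 to 865614 per library. The 12 columns held 10 distinct libraries, against 9 labelled samples: a pair of FDG-increased columns occurs in both tables (100% of genes above 1 FPKM within 1% of a common ratio), and the third differs. 0 sample columns were unused. Libraries were numbered as in the RYGB table, and that table was multiplied by 1.02165. Symbols turned into dates (25) were left out. Genes averaging 1 FPKM or more were kept, and differences are of log2(FPKM + 1), which understates the change of low genes.

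limma 3.58.1 in R 4.3.3 (trend, robust, Benjamini-Hochberg, threshold 0.05) was run within each table, never across them, and was tested on simulated data. Same-numbered libraries of the RYGB table deviated together (r = 0.85, 0.76 and 0.77), and the replicate block assumes that the numbers pair those samples. In the sham table same-numbered libraries did not deviate together (r = 0.35, -0.5 and -0.25). By the labels, replicate 1 of both RYGB groups was in lane 7 and replicate 2 of both in lane 4. Whether same-numbered RYGB libraries share an animal or only a lane was not tested. The labels do not say that replicates are separate animals, and p-values then measure only the spread between these samples. Alternatives changed the filter, pseudocount, scaling, replicate block and libraries. Genes were named by the 15 widest gaps on each side, up to 4 members of each list, limma calls and the edge of the rule. The 53 lists (801 of 847 genes found, 10 by a synonym) and the comparison were chosen with earlier results of these data known. Promoters came from RefSeq, GRCr8.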

Additional observations from a re-analysis of the deposited data

Results flagged for a closer look

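Among 40 genes that lay outside the sham range in all 7 RYGB libraries and were checked for a library far from the other RYGB libraries, 3 had such a library. Chance gives about 1 in 20 such groups. Ffar3 was at 8.75 FPKM in FDG-decreased library 2, Gprc5b was at 1.02 FPKM in FDG-increased library 2, and Lpl was at 3.44 FPKM in FDG-decreased library 1.

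For 5 named genes above sham, the FDG groups differed by limma within the RYGB table with the replicate block (log2 difference, FDG decreased minus FDG increased). The values were -1.37 for Hspa1b (adjusted p = 0.0141), -0.92 for Reg3g (adjusted p = 0.0104), -0.67 for Spink3 (adjusted p = 0.0382), -0.77 for Bag3 (adjusted p = 0.0252) and -0.67 for Dnajb1 (adjusted p = 0.0439). Without the block 0 genes were called.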

How the results depend on the processing

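The counts of 98 genes above and 78 below moved with several choices. With no filter on low values 124 lay below, and with a mean of at least 5 FPKM 39 did. A gap of at least 1.5-fold left 1 above and 0 below. With same-numbered RYGB libraries averaged as a replicate block they were 199 and 214, and for FDG-decreased library 1 alone, which shares its sequencing lane label with sham, 2820 and 2410. Without that library, FDG-increased library 1 and the library of the sham table alone, a setting chosen after seeing the data, they were 583 and 269. Fewer libraries on either side let more genes pass by rank alone, so these counts are no measure of lane. Leaving out 1 FDG-decreased or sham library gave 107 to 496 above and 96 to 279 below, and leaving out 1 FDG-increased library 99 to 182 and 83 to 111. The counts moved by over 1.5 times without FDG-decreased library 3 (189 and 175), without the FDG-increased library of the sham table alone (182 above) and without each sham library. They stayed within 1.5 times with no factor (81 and 94), the same median (101 and 113) and quantile normalization (85 and 80). The median over all genes was 0.10, and -0.0026 with quantile normalization.

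limma called 4 genes between FDG-increased and sham ileum (847 at an unadjusted p under 0.05), 39 with the replicate block (S100g, Hspa1b and Spink3 among the genes above sham and Ces1d among those below, although the numbers do not pair these samples), 1 with a pseudocount of 0.1, 0 with no filter, 1 with the same median, 0 with quantile normalization and 0 to 13 without 1 library. Between the FDG groups it called 0, 122 with the replicate block and 0 to 1 without 1 library. Of 640 values for the 40 named genes outside the sham range, 612 moved by less than the spread between replicates, 28 moved further and 0 changed direction. Depth limits nothing that can be stated, since FPKM gives no counts.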

Other observations

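Immune cell markers divided the RYGB libraries rather than RYGB from sham. The summed FPKM of T and NK cell markers was 52.8 and 49.3 in FDG-decreased and FDG-increased libraries 3, and 217 to 366 in the other RYGB libraries, with 149, 84.2 and 180 in sham. MHC class II genes summed to 185 FPKM in both library 3 samples and to 1798 to 3421 in the other RYGB libraries, with 860, 577 and 2685 in sham. Smooth muscle genes ran the other way, at 1814 and 2240 FPKM in the library 3 samples and 1000.4 to 1492 in the other RYGB libraries, with 1591, 1005 and 1308 in sham. Of the 22 T and NK cell genes tested, 0 lay outside the sham range in all 7.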
